A study of Oryza sativa with 2 samples.

Results

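Expansins and xyloglucan-modifying enzymes are the wall-loosening proteins of growing plant cells, and they were read here in early rice endosperm. The genes were chosen by name, as those with a symbol or synonym EXPA, EXPB, EXLA, EXLB, XTH or XET followed by a number. The gene table held 50 of them, and 30 had a probe set assigned to them alone, out of 17905 genes that could be read in this way. These 30 were 14 alpha-expansins (EXPA), 11 beta-expansins (EXPB), 4 expansin-like A genes (EXLA) and 1 xyloglucan endotransglucosylase/hydrolase (XTH8). EXLB1, the 1 expansin-like B gene in the table, was among the 20 not read. XTH8 was the only gene in the table with an XTH or XET name and number, so the xyloglucan side of the set rests on it alone. Genes of that family without such a name were not looked for.

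Expansins are secreted proteins that let cellulose and matrix polymers slip past each other without cutting them, and they act best in the acidic wall of an expanding cell. Alpha-expansins are the classic agents of acid-induced wall extension. Beta-expansins are an enlarged family in grasses, in which one branch makes the group-1 pollen allergens, and expansin-like proteins share the fold but have no settled wall-loosening activity. Xyloglucan endotransglucosylase/hydrolases cut xyloglucan chains and rejoin them or let water end them. Early endosperm is a special setting for such genes, because nuclei divide in a shared cytoplasm inside an expanding cell before walls form between them.

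The tissue was endosperm of Zhonghua11, a japonica rice cultivar, picked by hand 2 days after pollination, which the labels place before cellularization. Plants grew in a phytotron at 28 °C during 12 h of light and at 22 °C during 12 h of darkness. There was 1 group of 2 samples with 1 Affymetrix array each, and neither a treatment nor a second stage was measured here. Whether both samples shared plants is not stated in the labels, and the spread between arrays may be technical.

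A gene is called above background where its signal exceeded, on both arrays, the 95th percentile of 64 probe sets against reporter and transgene sequences. That limit stood at 52.7 for array 1 and 37.9 for array 2. All 6 endosperm markers read (SUS3, AGPS2, SWEET11, SSI, fie and NFYB1) were above it. So were 8 of 10 markers of other tissues, beside 74.1% of all genes read. Whether each marker is confined to the tissue it is listed under was not tested. The summed signal of the endosperm markers was 75776 on array 1 and 74998 on array 2. It was 495.0 and 497.8 for the 3 seed coat and nucellus markers, 349.7 and 502.7 for the 3 embryo and meristem markers, and 3237 and 3530 for the 4 green tissue markers. Most of the green tissue sum came from CAB2R, at 2746.8 on array 1 and 2999.5 on array 2. The ovule gene MADS13 exceeded background on array 2 alone, with signals of 46.1 and 41.3 on arrays 1 and 2. The meristem gene OSH1 was below it on both, at 1.16 and 11.7. The rest of these lists were above it on both arrays: MADS29 (305 and 339), MADS21 (144 and 117), VP1 (188 and 255) and HOS59 (161 and 236). The part of other tissues in the levels given here was not tested. In such bulk tissue, fewer cells with a transcript and less of it per cell cannot be told apart.

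Of the 30 wall-loosening genes read in this endosperm, 14 were above background on both arrays, or 46.7%, beside 74.1% of all genes read. A further 3 were above it on array 1 alone and 1 on array 2 alone, and 12 on neither array. Of all 17905 genes read, 269 were above it on array 1 alone, 737 on array 2 alone and 3636 on neither. The median of the mean log2 signals over all 30 genes was 5.76, against 8.58 over all genes read. The value of 5.76 lies near the background limits, log2 5.72 on array 1 and 5.24 on array 2, so it is no measured level. By subfamily, 5 of 14 EXPA, 6 of 11 EXPB, 2 of 4 EXLA genes and XTH8 were above background. The 14 genes above background are called bright below and the other 16 dim, a division made by the call itself. On both arrays the 14 genes had signals of at least 138.9, whereas none of the 32 signals of the other 16 genes was over 86.7. Whether the genes form separate groups of signal was not tested. All 14 also exceeded the highest single reporter signal, 92.3 on array 1 and 98.7 on array 2. Probe sets differ in affinity, so the order of signals given below is not an order of transcript amounts.

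**Figure D1:**
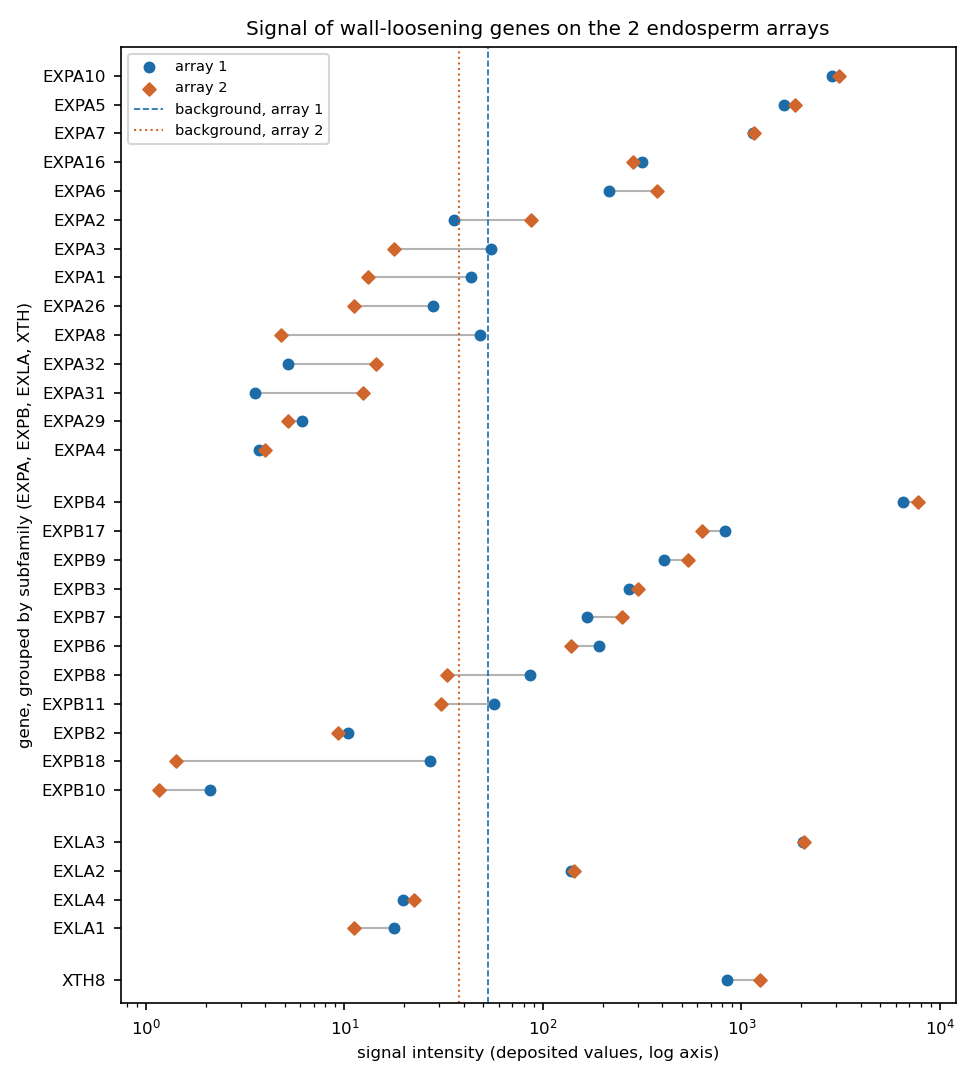
Signal intensity of the 30 genes read (log axis) on array 1 (circles) and array 2 (diamonds), grouped by subfamily and sorted by mean signal, with the background of each array as a dashed or dotted line. The 14 genes to the right of both lines start at a signal of 138.9, and EXPB4 stands farthest right at 6511 and 7716.

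Among the alpha-expansins, EXPA10, EXPA5 and EXPA7 gave the brightest signals. EXPA10 (LOC4336776, chromosome 4), known in rice for aluminium-responsive elongation of root cells, had signals of 2866 on array 1 and 3109 on array 2, a log2 mean of 11.54 ± 0.08 (SD, n = 2 here and below). EXPA5 (LOC4330706, chromosome 2) stood at 1634 and 1861 (10.77 ± 0.13). EXPA7 (LOC4334606, chromosome 3) stood at 1147 and 1150 (10.17 ± 0.00). All 3 were at least 21.8 times background on each array. EXPA16 (LOC4341549, chromosome 6) was dimmer, with signals of 315.3 and 283.1 (8.22 ± 0.11). EXPA6 (LOC4332763, chromosome 3) had signals of 215.6 and 374.3 (8.15 ± 0.56), the widest gap between the arrays among the 14 genes above background.

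The alpha-expansins that were first tied to growth of rice stems and coleoptiles, EXPA1 to EXPA4, were not above background on both arrays. EXPA1 read 43.5 on array 1 and 13.1 on array 2, and EXPA4, known to affect plant height in rice, read 3.69 and 3.97. EXPA2 passed background on array 2 alone, with signals of 35.5 and 86.7. EXPA3 passed it on array 1 alone, with 55.0 and 17.7, and was thus close to the limit of 52.7. These 2 genes are the only alpha-expansins whose call differed between the arrays.

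The remaining 5 alpha-expansins read were below background on both arrays. EXPA8, known in rice for its effect on root growth, read 48.0 on array 1 and 4.82 on array 2. EXPA26 read 28.0 and 11.2, EXPA31 read 3.56 and 12.4, and EXPA32 read 5.21 and 14.4. EXPA29 was dim on both arrays, at 6.13 and 5.17. The arrays thus gave no common level for most of these dim genes, and a value below background is no measure of a low level.

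The beta-expansin EXPB4 (LOC4349350, chromosome 10) gave the brightest signal of all 30 genes. It stood at 6511 on array 1 and 7716 on array 2 (12.79 ± 0.17), which was 123.4 and 203.5 times background. EXPB4 was read through a probe set of the _s_at kind, whose probes can match several related transcripts, so part of its signal may be shared with relatives. EXPB17 (LOC4336479, chromosome 4) had signals of 822.0 and 629.5 (9.49 ± 0.27). EXPB9 (LOC4349301, chromosome 10) had 409.2 and 539.8 (8.88 ± 0.28).

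EXPB3, EXPB7 and EXPB6 were the other beta-expansins above background. EXPB3 (LOC4349349, chromosome 10), studied like EXPB4 and EXPB6 in elongating stems of deepwater rice, read 271.7 and 300.0 (8.16 ± 0.10). Its probe set is of the _a_at kind, as is that of EXPA10, which marks probes shared by transcripts of 1 gene. EXPB7 (LOC4331300, chromosome 3) read 167.5 and 249.0 (7.67 ± 0.40), and EXPB6 (LOC4349347, chromosome 10) read 190.9 and 138.9 (7.35 ± 0.32). EXPB6 was 3.62 and 3.66 times background, a narrower margin than that of EXPB17 at 15.6 and 16.6.

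Of the 5 beta-expansins not above background, EXPB8 and EXPB11 passed it on array 1 alone. EXPB8 read 85.6 and 32.9, and EXPB11 read 56.8 and 30.8. EXPB2 was dim on both arrays, at 10.4 and 9.32. EXPB18 read 27.0 on array 1 and 1.42 on array 2, the widest gap of all 30 genes. EXPB10, related to the group-1 pollen allergens and the only pollen marker read, was below background on both arrays, at 2.10 and 1.16.

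The expansin-like A genes split evenly. EXLA3 (LOC4343213, chromosome 7) had signals of 2031 on array 1 and 2062 on array 2 (11.00 ± 0.02), and EXLA2 (LOC4349265, chromosome 10) had 138.9 and 143.7 (7.14 ± 0.03). EXLA4 read 19.7 and 22.3 and EXLA1 read 17.8 and 11.2, all below background. Each of the 4 genes had the same call on both arrays. XTH8 (LOC4345019, chromosome 8), an enzyme of xyloglucan cutting and rejoining known in rice as a gibberellin-responsive growth gene, stood at 845.9 and 1237 (10.00 ± 0.39). It was 16.04 times background on array 1 and 32.6 times on array 2.

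Some of these genes lie next to each other, and genes of 1 row could have different calls. In gene order, 22 of the 50 genes formed 8 rows of neighbours with at most 1 other protein-coding gene between them. Few row members could be read: 9 of 22, against 21 of the 28 genes outside the rows. The row of EXPA12, EXPA25, EXPA15, EXPA18, EXPA19 and EXPA20 on chromosome 3 was not analysed here at all, and neither were EXPA13 with EXPA14 on chromosome 2 or EXPB15 with EXPB5 on chromosome 4. EXPA8, EXPB11 and EXPA3 were read without their neighbours EXPA9, EXPB14 and EXPA33. The other members not analysed here were EXPA11, EXPA17, EXPA21, EXPA22, EXPA28, EXPB16 and EXLB1.

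The 2 rows that were read in full are both of beta-expansins. On chromosome 10 the order is EXPB6, EXPB2, EXPB3 and EXPB4, with no protein-coding gene between them. Of these, EXPB2 was below background on both arrays, while the other 3 were above it with the signals given above. On chromosome 3, EXPB8 was above background on array 1 alone and its neighbour EXPB7 on both. EXPB7 read 167.5 and 249.0 on arrays 1 and 2, and EXPB8 read 85.6 and 32.9.

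The probe set chosen matters for 2 of the 14 genes. EXPA7 had 3 probe sets: the one read was bright, while the others gave 48.4 and 6.42, and 4.97 and 3.64, on arrays 1 and 2, all below background. One of these dim probe sets (48.4 and 6.42) is listed under the same source sequence as the bright one. EXPB17 had 2 probe sets, and the second read 9.89 and 1.22. The calls of EXPA7 and EXPB17 were lost when the probe sets of a gene were averaged, which left 12 of 30 genes above background. EXLA2 also had 2 probe sets, and they gave close values, with the second at 121.9 and 141.1. The other 27 genes had 1 probe set each, so no such comparison could be made for them.

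**Figure D2:**
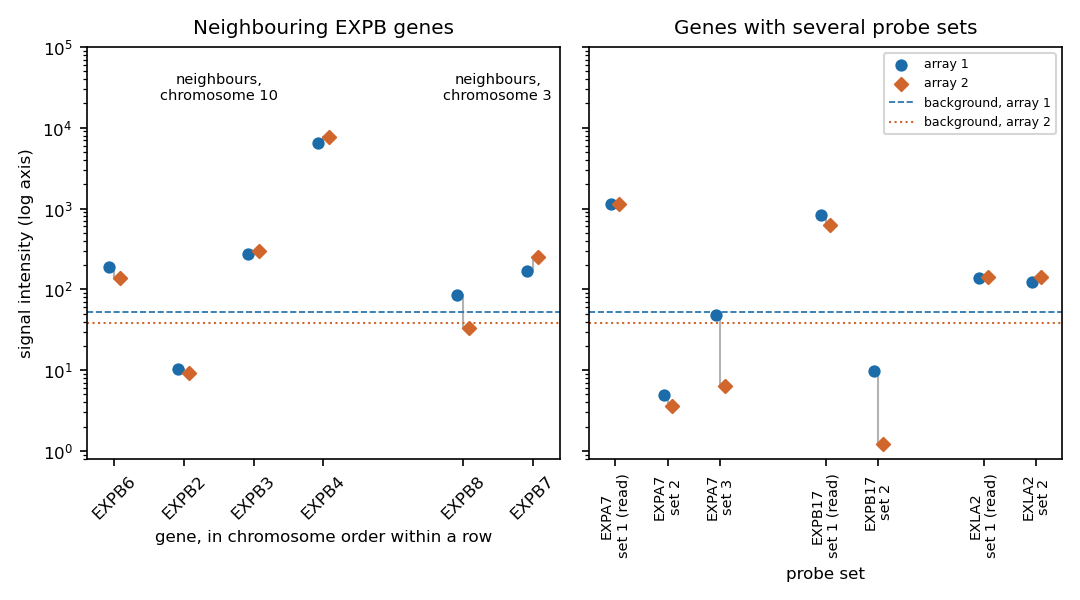
Signal intensity (log axis) on array 1 (circles) and array 2 (diamonds), with the background of each array as a dashed or dotted line. Left, neighbouring beta-expansins in gene order: EXPB2 lies below background between EXPB6 and EXPB3. Right, the 3 genes with several probe sets: EXPA7 and EXPB17 are bright in the probe set read and below background in the others, and the 2 probe sets of EXLA2 lie close together.

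The arrays gave close values for the bright genes and not for the dim ones. None of the 14 genes above background differed by over 2-fold between the arrays, beside 0.844% of all genes above background. Their log2 differences, array 2 minus array 1, ran from -0.46 for EXPB6 to 0.80 for EXPA6. Of the 14, 11 were higher and 3 lower on array 2, while 52.6% of the 13263 genes above background were lower on array 2. The median difference was 0.13 for the 14 genes, against -0.01 over those 13263. The pooled SD between the arrays was 0.26 for the 14 genes and 0.21 for all genes above background.

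Among the 16 genes not above background, 9 differed by over 2-fold, which is 9 of 16 beside 46.4% of all genes not above background. EXPA1, EXPA3, EXPA8, EXPA26, EXPB8 and EXPB18 were higher on array 1, and EXPA2, EXPA31 and EXPA32 higher on array 2. The log2 differences ran from -4.25 for EXPB18 to 1.80 for EXPA31, with a pooled SD of 1.22, beside 1.13 for all genes not above background.

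**Figure D3:**
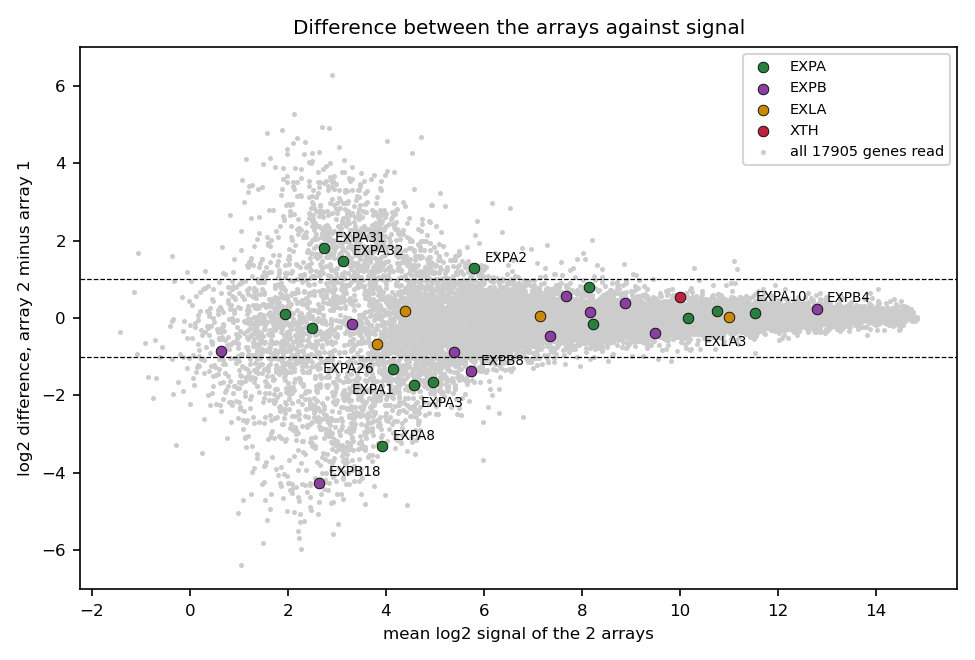
Log2 difference, array 2 minus array 1, against the mean log2 signal of the arrays, for the wall-loosening genes (coloured by subfamily) and all 17905 genes read (grey). Dashed lines mark a 2-fold difference in either direction. The 9 genes beyond them all lie at low signal, and EXPB18 stands lowest at -4.25.

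Other genes that build or cut the wall were read in 6 lists, which stand beside the same 74.1% of all genes above background. All 4 UDP-glucose epimerases, which make the galactose donor for wall sugars, were above background, and their median was 10.07 (log2 signal). UGE-2 stood at 11.06 ± 0.11, UGE-4 at 10.97 ± 0.09 and UGE-3 at 9.18 ± 0.08. Of 5 CSLC genes, which make the glucan backbone of xyloglucan, 4 were above background, with a median of 8.69. CSLC1 stood at 11.17 ± 0.09, CSLC9 at 10.07 ± 0.13 and CSLC7 at 8.69 ± 0.13. CSLC7 was read through a probe set of the _x_at kind and may share signal with relatives.

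Of 5 CSLF and CSLH genes, which make the mixed-linkage glucan of grass walls, 2 were above background. CSLF6, the main enzyme of this glucan in rice, stood at 8.91 ± 0.02 and CSLF8 at 7.55 ± 0.35. The other 3, CSLF7, CSLF2 and CSLH1, were below background on both arrays. Of 9 cellulose synthase genes, 8 were above background, with a median of 9.09, and CESA1 (11.15 ± 0.11), CESA8 (10.96 ± 0.07) and CESA5 (10.85 ± 0.37) were the brightest.

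Of 4 COBRA-like genes, named after regulators of cellulose assembly, 2 were above background, BC1L6 at 10.03 ± 0.21 and BC1L9 at 9.75 ± 0.50. BC1, the brittle culm gene of secondary walls, was below background on both arrays, with signals of 7.15 and 27.3. Of 11 endo-beta-glucanases, which cut glucan chains, 9 were above background, with a median of 6.42. GLU12 stood at 11.97 ± 0.05, GLU2 at 10.99 ± 0.17 and GLU1, tied to internode elongation in rice, at 10.66 ± 0.07. Among the genes named from these lists, CSLF6 had 3 probe sets, and CESA1, GLU12 and BC1L9 had 2 each. Only the chosen probe set of each is given here. No list was tested against another, and the shares are descriptions of these arrays.

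**Figure D4:**
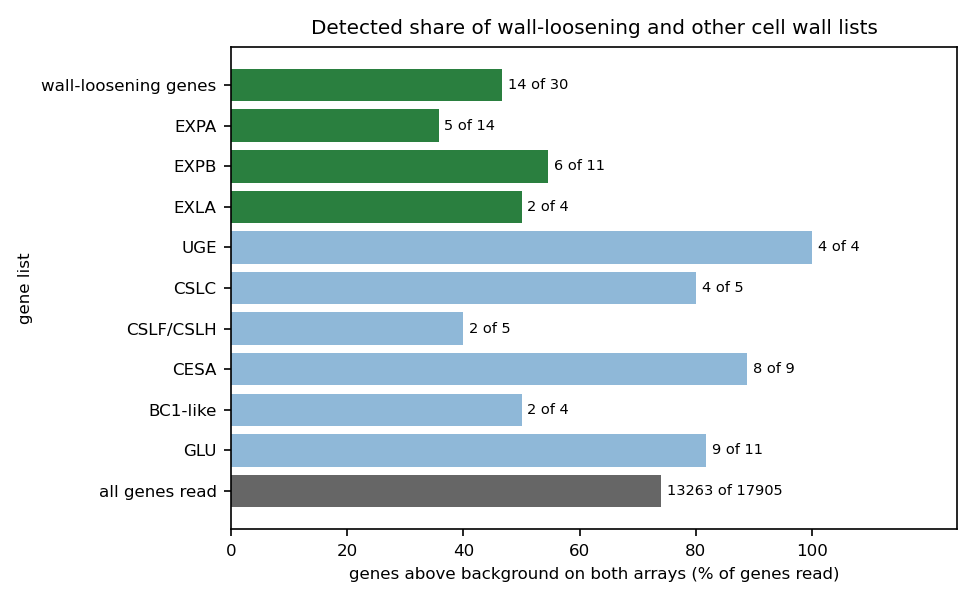
Share of the genes read that were above background on both arrays, as bars from 0, with the number of genes beside each. Green bars are the wall-loosening genes and their subfamilies (XTH, with 1 gene, is in the first bar only), blue bars other wall lists, and the grey bar all genes read: 14 of 30 wall-loosening genes stand beside 13263 of 17905 genes.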

How the data were processed

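Endosperm RNA of 2 samples was hybridized to 1 Affymetrix rice array each. The authors deposited 1 linear signal intensity for each probe set on each array. Per the submitters' processing notes MAS5 made them, with a version and settings not given in the sources used here. After 2% of the values were trimmed from each end, both arrays had a mean of 500.1, so each had been scaled on its own. No further normalization was done, and log2 was taken with no pseudocount.

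Members were found by symbol or synonym in the gene table of assembly ASM3414082v1 and joined by Entrez identifier to the 22436 probe sets that the platform annotation of 2016 gives 1 gene. A further 95 probe sets had several genes and 34850 had none listed. All 17905 genes so read were found in the gene table. For a gene with several probe sets, the one read was taken in the suffix order _at, _a_at, _s_at and _x_at, and among equals by the highest mean. Background was the 95th percentile of 64 reporter and transgene probe sets on each array. With 1 group there was no test, and the number of arrays limits the precision. The members and lists were chosen with earlier results of these data known.

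All members are named; values on both arrays are given for those above background on both, the 3 brightest of each subfamily and those over 2-fold apart. Of each other wall list the 3 brightest are named. No gene of the planned beta-galactosidase, pectin methylesterase or fasciclin-like lists was matched. A bHLH factor with BC1 as a synonym was left out of the COBRA-like list. The steps were tested on simulated data. Python 3.11.15, pandas 2.3.3, NumPy 2.4.6 and matplotlib 3.10.9 were used.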

Additional observations from a re-analysis of the deposited data

How the results depend on the processing

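The count of 14 genes above background was also 14 after quantile normalization and with background set at the highest reporter signal. Reading each gene through its brightest probe set also gave 14, but it could not differ, as those were the probe sets already read. An offset of 16 before log2 gave 14 too, but it was added to signal and background alike and so could change no call. Over all genes read, the share above background was 75.9% with the brightest probe set, 74.1% after quantile normalization and with the offset, and 65.5% with the highest reporter signal. The count was 12 with probe sets averaged (73.5% of all genes), 17 on array 1 alone (75.6%) and 15 on array 2 alone (78.2%). Among genes read through a probe set ending _at it was 11 of 27. This alternative was chosen after seeing the data, and no share over all genes was taken for it. The median log2 signal of 5.76 became 6.16 with the offset and 5.39 among those 27 genes, and ran from 5.74 to 6.12 on 1 array alone. Over all genes the offset gave 8.64, array 1 alone 8.60 and array 2 alone 8.57. None of the wall-loosening genes above background was over 2-fold apart under any of these settings that use both arrays. Matching by symbol alone found 0 members, so it gave no value. Of the 30 gene levels, 11 moved by more than the spread between arrays with the offset and 3 with probe sets averaged, and none after quantile normalization. No paired analysis was possible because there was 1 group. Below background the signals have no order, so dim genes have no level here.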

Other observations

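Further wall genes were read, with lists chosen after the gene table was seen. Their counts stand beside 74.1% of all genes read that were above background on both arrays. XXT1, which adds xylose to the xyloglucan backbone and is needed for root hair growth in rice, was above background, with signals of 1202 on array 1 and 1326 on array 2 (log2 mean 10.30 ± 0.10, SD, n = 2). XXT1 had 2 probe sets, of which only the chosen one is given here. All 4 CSLA genes, of the family that makes mannan and glucomannan, were above background. The brightest was CSLA9 at 13464 and 13601 (13.72 ± 0.01), followed by CSLA7 at 637.6 and 568.8 and CSLA1 at 486.7 and 697.8. Of 4 CSLD genes, of a family with some members known from tip-growing cells, 3 were above background. CSLD2 stood at 2529 and 2211 (11.21 ± 0.14), CSLD4 at 469.8 and 534.6 and CSLD1 at 108.3 and 160.2, while CSLD5 was below background at 4.61 and 23.0. Neither of the 2 pectin methylesterase inhibitor genes was above background on both arrays: PMEI8 read 58.4 and 6.46, and PMEI28 read 48.8 and 32.8.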
